A study of Mus musculus with 6 samples.

Results

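Integrins and laminins, the receptors and ligands by which cells hold on to the extracellular matrix, were followed in NIH3T3 cells, an established line of mouse embryonic fibroblasts. The genes were chosen by symbol: every integrin subunit whose symbol is Itga or Itgb with a number (a letter may follow, as in Itga2b), Itgav, and every laminin chain whose symbol is Lama, Lamb or Lamc with a number. This gave 30 genes of the 18193 on the array that were paired with a single symbol: 12 integrin alpha subunits, 8 integrin beta subunits and 10 laminin chains. The rule itself reads symbols and no measured value, except that a gene with several probe sets was represented by the one with the highest mean intensity over the 6 arrays. Integrin subunits named by a letter other than v, such as the leukocyte subunits Itgal and Itgam, fell outside the rule.

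An integrin is a pair of an alpha and a beta subunit that spans the membrane. The outer part binds matrix proteins such as fibronectin, collagen, vitronectin or laminin, and the short inner part is linked by talin and other adaptors to actin in focal adhesions. A laminin is a trimer of an alpha, a beta and a gamma chain that is secreted and assembles into the sheet of a basement membrane together with nidogen, type IV collagen and perlecan. In fibroblasts the beta 1 integrins and the αv integrins are the best-known adhesion receptors, and their genes respond to serum and to growth factors.

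The data were 6 Affymetrix arrays of total RNA: cells with wild-type LPAR1 harvested at 0, 60 and 120 minutes, and cells with mutant LPAR1 harvested at the same times, with 1 array per genotype and time. LPAR1 is a receptor for lysophosphatidic acid, a serum lipid that acts through G proteins on growth and on the actin cytoskeleton. The labels give neither the mutation, nor the way the receptor was changed, nor any treatment that started the time course, nor the number of cultures or clones. No genotype and time had replicate arrays. The p-values therefore measure only how far these arrays departed from additive genotype and time terms, with a variance drawn in part from other genes. That departure may be technical. A genotype difference may therefore also hold a difference between cell populations that were grown apart, which cannot be told apart here. Values are probe-set intensities on a linear scale, and only 6 arrays limit their precision. Array medians lay between 34.1 and 37.3. Of 14 fibroblast markers on the array, 13 lay above the filter level described next, and all 14 had a summed intensity between 73640 and 76000 in wild-type and between 71860 and 72800 in mutant cells. Single markers differed: in the genotype test below, 4 of the 13 were lower and 1 higher (8.95% and 10.4% of all genes). Of 10 endothelial markers 2 lay above the level, and 1 of these (Cdh5) was higher in mutant cells. Of 9 muscle markers 1 lay above it (Acta1) and was lower. For Actb, 5′ control signal divided by 3′ control signal, which falls as RNA degrades, was 0.579 (wild-type) and 0.505 (mutant) at 0 minutes and between 0.650 and 0.699 later. The same ratio for Gapdh was between 0.954 and 1.03 on all arrays. The Actb ratio moved with the time comparisons below, and its part in them was not tested.

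Differences are given as log2(intensity + 16), which understates changes at low intensity. Genes were tested if their mean level was above the 40th percentile of all genes, an intensity of 39.2, which left 10916 genes. Of the 30 integrin and laminin genes 22 were tested: 9 alpha subunits, 7 beta subunits and 6 laminin chains. The 8 others had mean intensities between 2.38 and 36.8. These were Itga2, a collagen receptor subunit, which at 36.8 lay just under the level, Itga4, Itga7 and Itgb6, and the laminin chains Lama1, Lama2, Lamb3 and Lamc3. Itgb4 at 45.9 and Itga1 at 46.7 lay just above it. A gene called at 1 of these dim sets rests on little signal, and 5 tested genes (Itga1, Itga8, Itga10, Itgb4 and Lama3) lay under 1.5 times the level. Intensities of different probe sets depend on the probes and were not compared with each other.

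The stretches of 250 bases before the annotated start of 4 integrin genes are printed because these genes carry time results below. Itga5, the alpha partner of Itgb1 in the fibronectin receptor, gained signal at 3 of its 4 probe sets, though not at the set used for it. Itgb1 gained signal and Itgb8 lost it. Itgb5 was called lower at 60 but not at 120 against 0 minutes, at the set used only, and that call was lost under 5 of 16 other settings. The stretches come from RefSeq, build GRCm38.p6, 5′ to 3′ on the strand of the gene. Capitals mark matches, on either strand, to any of the motifs searched: the AP-1 site TGANTCA, the TEAD site GGAATG, the EGR site GCGNGGGCG, the SRF CArG box and the GC box GGGCGG of SP and KLF factors, of which the last can overlap an EGR site.
Itga5, chr15:103366792-103367041, minus strand: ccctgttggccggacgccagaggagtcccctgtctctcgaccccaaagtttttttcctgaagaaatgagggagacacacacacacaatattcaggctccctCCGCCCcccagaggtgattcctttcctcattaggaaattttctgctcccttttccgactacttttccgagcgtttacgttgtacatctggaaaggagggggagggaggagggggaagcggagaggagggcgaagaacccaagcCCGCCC
Itgb1, chr8:128685404-128685653, plus strand: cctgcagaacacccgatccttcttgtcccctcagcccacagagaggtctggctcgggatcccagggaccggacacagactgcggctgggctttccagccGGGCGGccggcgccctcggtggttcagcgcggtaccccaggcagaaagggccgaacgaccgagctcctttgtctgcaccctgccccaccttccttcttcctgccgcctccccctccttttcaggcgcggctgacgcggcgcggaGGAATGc
Itgb5, chr16:33829415-33829664, plus strand: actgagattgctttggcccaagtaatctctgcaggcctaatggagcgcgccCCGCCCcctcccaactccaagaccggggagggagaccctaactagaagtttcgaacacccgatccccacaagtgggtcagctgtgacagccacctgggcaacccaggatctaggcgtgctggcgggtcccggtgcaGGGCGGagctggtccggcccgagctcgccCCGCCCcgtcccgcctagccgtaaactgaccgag
Itgb8, chr12:119238277-119238526, minus strand: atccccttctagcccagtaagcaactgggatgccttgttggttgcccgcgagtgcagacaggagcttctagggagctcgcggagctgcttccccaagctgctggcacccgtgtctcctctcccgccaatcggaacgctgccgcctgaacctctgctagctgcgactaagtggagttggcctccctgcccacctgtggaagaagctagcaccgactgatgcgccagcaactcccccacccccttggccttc

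The Itga5 stretch held 2 GC boxes, that of Itgb1 held 1 GC box and 1 TEAD site, that of Itgb5 held 3 GC boxes, and that of Itgb8 held none of the motifs. The table held 23 such stretches for 20 of the 30 genes. Itga6, Itgb3 and Lamc1 were not among them. A GC box was found in 8 of the 23, against 32.7% of 32851 stretches of the same length in the whole table, and a TEAD site in 3, against 12.6%. A CArG box was found in 2 (Itgb6 and Lama2), against 1.47%, an EGR site in 1 (Lamb1), against 4.70%, and an AP-1 site in 0, against 6.75%. These are matches of letters in a short window only.

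The comparison of mutant with wild-type cells asks how the genotypes differed at the same time point. Of the 22 genes tested, 7 were lower in mutant cells (Itga1, Itga6, Itgb1, Itgb3, Itgb5, Lama4 and Lamb2) and 2 were higher (Itgb2 and Itgb7), in a fit with genotype and time as additive terms (limma, adjusted p under 0.05 over all genes). Over all 10916 genes 8.95% were lower and 10.4% higher. The median log2 difference was -0.14 over the 22 genes and 0.01 over all genes tested. Without a model, 10 of the 22 genes were below wild-type at all 3 times, against 22.9% of all genes, and 2 were above it at all 3 times, against 28.4%. The differences of called genes were at most 0.50 in size on the log2(intensity + 16) scale. In 6 genes every mutant array lay below every wild-type array, against 7.64% of all genes, and in 2 every mutant array lay above, against 9.08%. The calls rest on pairing the arrays by time: with time left out of the fit 0 were lower and 0 higher. The same fit also called far fewer of all 10916 genes, so this loss was not particular to the 22 genes. The count of higher genes was 0 without either 0 minute array, 1 without either 60 minute array and 3 without either 120 minute array. Over all genes, genotype calls were also fewer without a 0 or 60 minute array and slightly more without a 120 minute array.

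**Figure D1:**
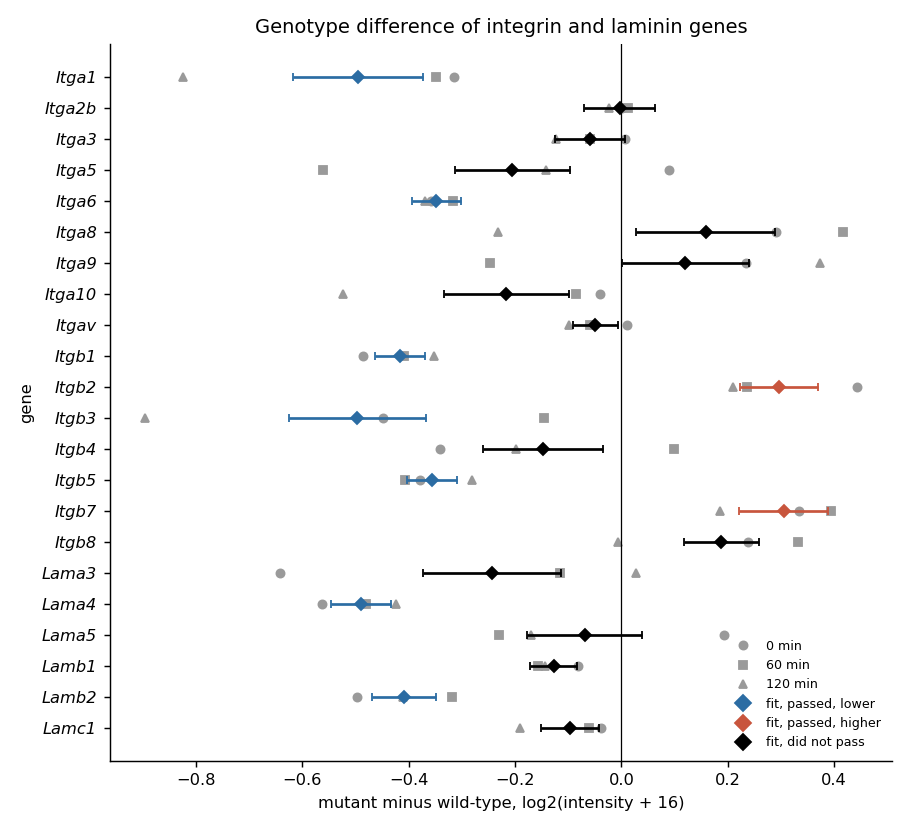
Mutant minus wild-type log2 difference for the 22 integrin and laminin genes tested: grey symbols are the differences at 0, 60 and 120 minutes, and diamonds with bars are the fitted difference and its SE. The 7 genes that were lower and the 2 that were higher are coloured, and the 3 time points of Itga6, Itgb1, Itgb5, Lama4 and Lamb2 lie close together, while those of Itga1 and Itgb3 spread out to the 120 minute arrays.

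Among the alpha subunits, Itga6, which pairs with beta 1 or beta 4 to bind laminin, had intensities of 1186, 1157 and 1480 in wild-type and 922, 925 and 1142 in mutant cells at 0, 60 and 120 minutes. Every mutant array lay below every wild-type array. The log2 difference was -0.35 ± 0.046 (SE, n = 3 arrays per genotype, each at a different time, adjusted p = 0.000901), and a second Itga6 probe set gave -0.43. Itga1, which pairs with beta 1 to bind collagen and laminin, had 59.4, 55.1 and 56.4 in wild-type and 44.6, 39.9 and 24.9 in mutant cells. Here too the genotypes did not overlap, but the 120 minute mutant array had fallen below the filter level and made the largest part of the difference. The log2 difference was -0.50 ± 0.12 (adjusted p = 0.0204) at the set used and -0.10 at a second, dimmer set that was not tested. Dropping the 120 minute array of wild-type or of mutant cells ended the call (-0.33; adjusted p = 0.0684 and 0.0611), and an offset of 64 in place of 16 gave -0.27.

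The other 7 alpha subunits did not pass. Itgav, an alpha partner of Itgb1, Itgb3, Itgb5 and Itgb8, had 2751, 2836 and 3009 in wild-type and 2770, 2722 and 2811 in mutant cells. Its genotypes overlapped and differed by -0.05 ± 0.042 on the log2 scale (adjusted p = 0.459). Itga3, a laminin receptor subunit (-0.06 ± 0.066), and Itga2b, the platelet fibrinogen receptor subunit (-0.00 ± 0.067), differed by less than 1 SE. Of 6 platelet markers on the array, 3 lay above the filter level, the highest at a mean of 88.2, and the summed intensity of all 6 was between 255 and 271 in wild-type and between 264 and 280 in mutant cells. Itga5, which has a paragraph of its own below, differed by -0.20 ± 0.11 and was called lower without either 0 minute array (-0.35; adjusted p = 0.0349 and 0.0352). The fitted differences of Itga5, Itga8, Itga9 and Itga10 lay between -0.22 and 0.16 with SE from 0.11 to 0.13, and the arrays of the genotypes overlapped for each of them.

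Among the beta subunits, Itgb1, the partner of most fibroblast alpha subunits, had 1517, 1719 and 1834 in wild-type and 1079, 1291 and 1433 in mutant cells. All mutant arrays lay below all wild-type arrays. The log2 difference was -0.42 ± 0.047 (adjusted p = 0.000338). All 3 other Itgb1 probe sets above the filter level were lower as well, by -0.36 to -0.45, and passed when probe sets were fitted in place of genes (adjusted p from 0.00138 to 0.0298, against 6.54% of 21705 probe sets called lower).

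Itgb5, which pairs with αv as a vitronectin receptor, had 1808, 1520 and 1577 in wild-type and 1387, 1142 and 1294 in mutant cells. The genotypes again did not overlap. The log2 difference was -0.36 ± 0.047 (adjusted p = 0.000893), and its 3 other probe sets gave -0.34 to -0.40, each of them called lower. Each of these genes was thus lower at all 4 of its probe sets above the filter level.

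Itgb3, the αv partner that binds vitronectin and fibrinogen, had 69.1, 74.3 and 164 in wild-type and 46.4, 65.6 and 80.7 in mutant cells. The mutant array was lower at each time, but the genotypes overlapped, since the 120 minute mutant array lay above the 0 and 60 minute wild-type arrays. The log2 difference of -0.50 ± 0.13 (adjusted p = 0.0251) held -0.45 at 0, -0.15 at 60 and -0.90 at 120 minutes. A second, dimmer Itgb3 set that was not tested gave -0.13. Dropping the 120 minute array of either genotype ended the call (-0.30; adjusted p = 0.0866 and 0.0775), as did fits without the trend in shrinkage (0.0597) and with the mean of its probe sets (0.0634).

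The 2 genes higher in mutant cells, Itgb2 and Itgb7, encode beta subunits known from leukocytes. Itgb2 had 154, 151 and 178 in wild-type and 215, 181 and 208 in mutant cells (log2 0.30 ± 0.074; adjusted p = 0.0212). Itgb7 had 85.3, 75.3 and 82.8 in wild-type and 112, 104 and 96.3 in mutant cells (0.31 ± 0.084; adjusted p = 0.0315). For both genes every mutant array lay above every wild-type array. Of 13 leukocyte markers 5 lay above the filter level: Lyz2 with a mean of 168, Itgae, an alpha partner of Itgb7 but not its only one, with 116, Csf1r with 71.7, Adgre1 with 69.6 and Laptm5 with 43.5. The other 8 lay below it, among them the pan-leukocyte phosphatase gene Ptprc (17.9) and Itgal (24.1), Itgam (5.75) and Itgax (13.5), which are alpha partners of Itgb2. The summed intensity of all 13 was between 552 and 623 in wild-type and between 549 and 624 in mutant cells. This sum mostly reflects the brightest markers. Ptprc and Cd68, both below the level, were higher in every mutant array than in every wild-type array, Cd68 narrowly. No marker of the 13 was lower in every mutant array than in every wild-type array. The part of these markers in the differences was not tested. Each gene has 1 probe set. With the 0 minute array of wild-type or of mutant cells dropped, Itgb2 had an adjusted p of 0.155 and 0.164 and Itgb7 of 0.139 and 0.146. Itgb7 was also not called without either 60 minute array (0.140 and 0.147) or without the filter on low genes (0.0535).

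Itgb8, the αv partner that activates TGF-beta, had 504, 492 and 327 in wild-type and 597, 623 and 325 in mutant cells. It was higher in mutant cells at 0 and 60 minutes and level with wild-type at 120 minutes, and its log2 difference of 0.19 ± 0.070 did not pass (adjusted p = 0.0923). Itgb8 was called higher without either 120 minute array (0.29; adjusted p = 0.0104 and 0.0103) and, narrowly, after quantile normalization (0.18; adjusted p = 0.0495). Itgb4, the hemidesmosome subunit of epithelia, lay near the filter level and differed by -0.15 ± 0.11. Of 13 epithelial markers, 7 lay above the filter level, and the sum of all 13 was between 1743 and 1927 in wild-type and between 1690 and 1962 in mutant cells. By genotype 1 of the 7 was called lower and 0 higher (8.95% and 10.4% of all genes). This was Cdh1, with 149, 133 and 104 in wild-type and 109, 89.3 and 66.0 in mutant cells.

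Among the laminin chains all 6 genes tested had a negative difference at the probe set used, with a median of -0.19 against 0.01 for all genes. Dimmer sets that were not tested gave 0.18 and 0.05 for Lama5, 0.25 for Lamb1 and -0.03 for Lama3. Of the 6, 2 passed, where 8.95% of all genes were lower. Lama4, the alpha chain of the laminins of mesenchymal cells and vessels, had 582, 525 and 519 in wild-type and 389, 372 and 382 in mutant cells, a log2 difference of -0.49 ± 0.057 (adjusted p = 0.000390). A second, dimmer Lama4 set that was not tested also gave -0.49. Lamb2, a beta chain, had 489, 394 and 431 in wild-type and 341, 313 and 320 in mutant cells, a difference of -0.41 ± 0.060 (adjusted p = 0.00165). For both chains the genotypes did not overlap.

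The chains that complete such trimers differed by less. Lamb1, the beta chain most used alongside Lamc1, had 1732, 1594 and 1745 in wild-type and 1635, 1428 and 1578 in mutant cells, lower at every time but overlapping (-0.13 ± 0.044; adjusted p = 0.0725). Lamc1, the gamma chain of most laminins, differed by -0.10 ± 0.054 (adjusted p = 0.246). Lama3 and Lama5, alpha chains of epithelial basement membranes, lay at 1.415 and 1.56 times the filter level (-0.24 ± 0.13 and -0.07 ± 0.11).

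**Figure D2:**
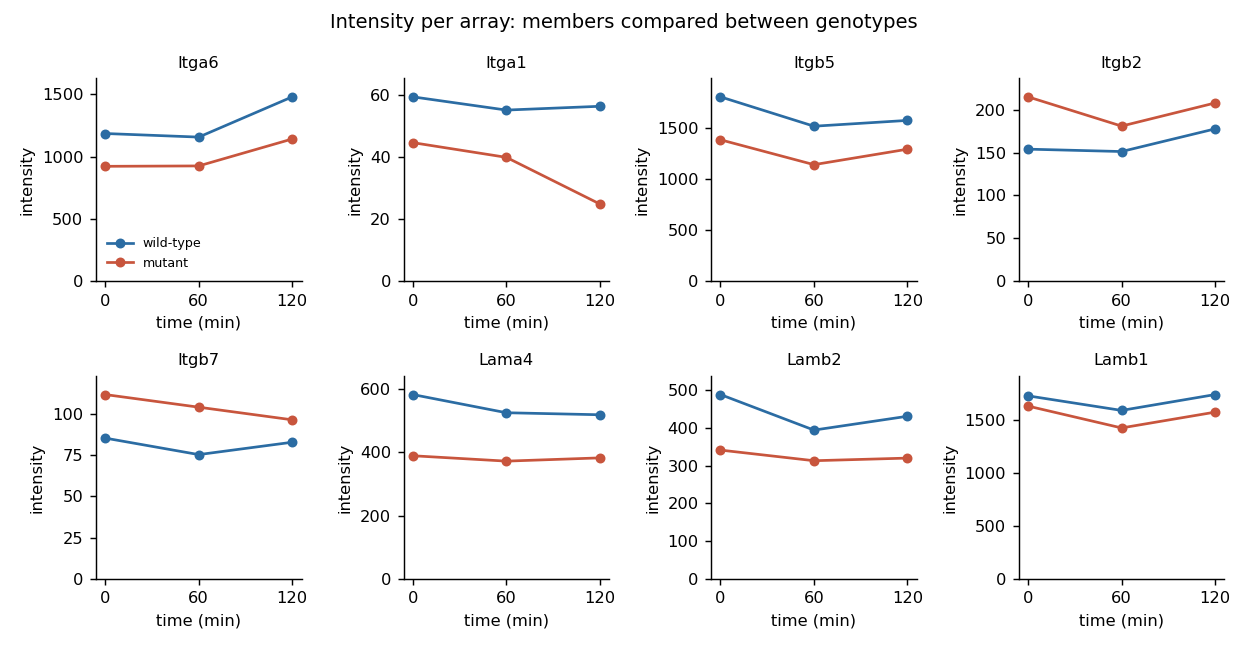
Intensity against time in minutes at the probe set used for 8 integrin and laminin genes, wild-type in blue and mutant in red, 1 array per point, with each vertical axis starting at 0. The mutant line runs below the wild-type line at all 3 times for Itga6, Itga1, Itgb5, Lama4, Lamb2 and Lamb1 and above it for Itgb2 and Itgb7, and only Lamb1 has overlapping intensities.

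The time comparisons ask what changed within the first and second hour in both genotypes. In the first hour, at the probe set used for each gene, 1 of 22 rose (Itgb1) and 1 fell (Itgb5), where 7.34% of all genes rose and 10.7% fell. The rise was not called without the wild-type 60 minute or either of the mutant 0 and 60 minute arrays, nor the fall without the wild-type 0 minute or mutant 60 minute array. At 120 against 0 minutes 4 rose (Itga6, Itgb1, Itgb3 and Lamc1) and 1 fell (Itgb8), where 16.2% of all genes rose and 30.8% fell. Without the wild-type 120 minute array 3 fell (Itga1, Itga10 and Itgb8), and without the mutant one 2 (Itgb5 and Itgb8). Between 60 and 120 minutes 3 rose (Itga6, Itgb3 and Lamc1) and 1 fell (Itgb8), where 10.2% rose and 14.9% fell. These 3 comparisons share arrays and are not separate evidence. All counts take Itga5 at the set used for it, though its 3 other sets rose at 60 and at 120 against 0 minutes, as given below. The median absolute log2 difference at 120 against 0 minutes was 0.12 for the 22 genes and 0.20 for all genes tested.

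Itgb3 had the largest rise among these genes at the probe set used for each, from 69.1 to 164 in wild-type and from 46.4 to 80.7 in mutant cells between 0 and 120 minutes. The log2 difference was 0.86 ± 0.16 (SE, n = 2 arrays per time, each of a different genotype, adjusted p = 0.00155). At 60 minutes it had 74.3 and 65.6 (0.24 ± 0.16; adjusted p = 0.333), and the second hour gave 0.62 ± 0.16 (adjusted p = 0.0170). Most of the wild-type rise lay in the second hour (0.09 by 60 minutes, 1.08 by 120), while in mutant cells 0.39 of 0.63 was reached by 60 minutes. The call for the second hour was lost without the wild-type array of 60 (adjusted p = 0.177) or of 120 minutes (0.166), and without the latter the estimate was 0.32. The difference in course between the genotypes was not tested.

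Lamc1 had 614, 670 and 920 in wild-type and 597, 641 and 804 in mutant cells. Both genotypes were highest at 120 minutes, and the 120 minute arrays lay above all others. The log2 difference was 0.50 ± 0.066 at 120 against 0 minutes (adjusted p = 0.000202) and 0.11 ± 0.066 at 60 minutes (adjusted p = 0.275). A second Lamc1 probe set, just above the filter level, gave 0.06 ± 0.14 at 120 minutes, so the rise rests on 1 of 2 sets. Its trimer partner Lamb1 differed by -0.02 ± 0.054 over the same time.

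Itga6 stayed at 1157 and 925 at 60 minutes, from 1186 and 922 at 0, and then had 1480 and 1142 at 120 minutes in wild-type and mutant cells. The log2 difference over the second hour was 0.32 ± 0.057 (adjusted p = 0.00213), and the other probe set of the gene also rose, by 0.51 (9.10% of probe sets rose). Itgb1 was higher than at 0 minutes by 0.22 ± 0.058 at 60 (adjusted p = 0.0274) and by 0.34 ± 0.058 at 120 minutes (adjusted p = 0.000953). Its second hour alone, at 0.12 ± 0.058, did not pass (adjusted p = 0.166). The 60 minute call was lost without the mutant array of 0 (adjusted p = 0.256) or 60 minutes (0.125), the wild-type array of 60 minutes (0.0967), without the shrinkage trend (0.0919) or with the mean of its probe sets (0.0779). Of the 3 other Itgb1 sets 2 rose by 0.40 and 0.46 at 120 against 0 minutes (15.7% of probe sets rose), while 1 gave 0.18 ± 0.11 and was -0.07 in mutant cells.

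Itgb8 was the gene that fell. It held 504 and 492 in wild-type and 597 and 623 in mutant cells at 0 and 60 minutes, and then 327 and 325 at 120 minutes. Both 120 minute arrays lay below the 4 others. The log2 difference over the second hour was -0.74 ± 0.086 (adjusted p = 0.000206), and that at 120 against 0 minutes was -0.72 ± 0.086 (adjusted p = 9.84e-05). Both calls were kept under every alternative run, but Itgb8 has 1 probe set, so the 2 treatments of probe sets used the same values. Itgb5 was lower at 60 than at 0 minutes, by -0.26 ± 0.058 (adjusted p = 0.0115). Its 3 other sets gave -0.16 to -0.18 without passing (8.55% of probe sets fell), and the call was lost under median scaling (adjusted p = 0.128), without the shrinkage trend (0.0549) and without the wild-type array of 0 (0.0825) or the mutant array of 60 minutes (0.100). Itgav, their alpha partner, differed by 0.01 ± 0.051 at 60 and 0.07 ± 0.051 at 120 minutes.

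**Figure D3:**
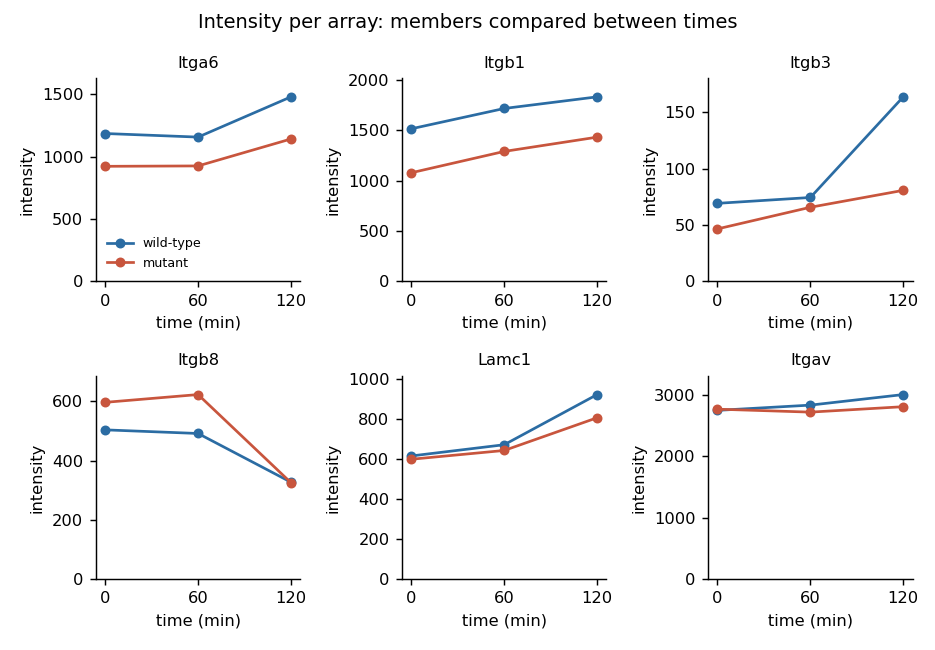
Intensity against time in minutes for the 5 genes that rose or fell between 0 and 120 minutes and for Itgav, wild-type in blue and mutant in red, 1 array per point, with each vertical axis starting at 0. Itgb3, Lamc1 and Itga6 are highest at 120 minutes in both genotypes, Itgb1 is higher at each later time than at 0 minutes, Itgb8 drops to 327 and 325 at 120 minutes, and Itgav changes little.

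Itga5, which pairs with Itgb1 as the main fibronectin receptor, gave opposite pictures at its 4 probe sets. At the set used by the rule, 1423268_at, intensities were 168, 213 and 197 in wild-type and 180, 139 and 177 in mutant cells, and no comparison passed (-0.01 ± 0.13 at 60 and 0.09 ± 0.13 at 120 against 0 minutes). At 1458996_at they were 60.0, 234 and 109 in wild-type and 55.3, 219 and 97.8 in mutant cells. At 1457561_at they were 20.7, 108 and 52.0 in wild-type and 23.9, 114 and 44.8 in mutant cells. Both of these sets were highest at 60 minutes in each genotype and had come part of the way back at 120 minutes.

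The remaining set, 1423267_s_at, had 58.9, 127 and 234 in wild-type and 50.7, 143 and 200 in mutant cells, and so was highest at 120 minutes. With probe sets fitted in place of genes, the log2 differences at 60 against 0 minutes were 1.72 ± 0.095 for 1458996_at (adjusted p = 3.59e-06), 1.73 ± 0.12 for 1457561_at (1.48e-05) and 1.09 ± 0.11 for 1423267_s_at (0.000199). Over all 21705 probe sets tested 7.17% rose. From 60 to 120 minutes the first 2 of these sets fell, by 1.02 and 0.98 on the log2 scale (adjusted p = 0.000111 and 0.000491; 10.7% of probe sets fell), and 1423267_s_at rose by 0.62 (0.00438). At 120 against 0 minutes 1458996_at was higher by 0.69 ± 0.095 (adjusted p = 0.000435) and 1457561_at by 0.75 ± 0.12 (0.00104). The set 1423267_s_at was higher by 1.72 ± 0.11 (6.13e-06), where 15.7% of probe sets rose. Of the 4 sets 3 thus rose at 60 minutes, by more than any integrin or laminin gene at the probe set used for it, and their order at 120 minutes differed. The genotypes differed by 0.01 to -0.10 at these 3 sets, and none passed. The place of each probe set in the transcript was not used here, and the reason for the disagreement was not tested.

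**Figure D4:**
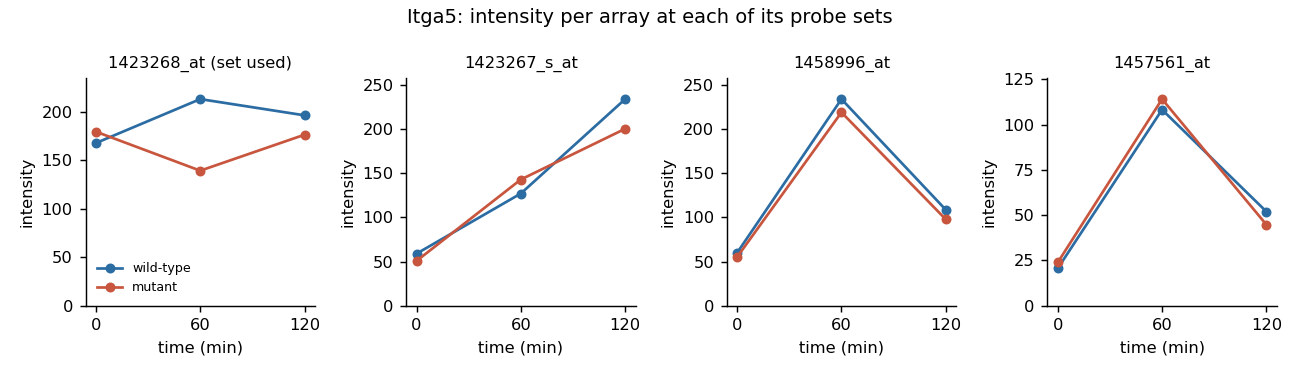
Intensity of Itga5 against time in minutes at each of its 4 probe sets, wild-type in blue and mutant in red, 1 array per point, with each vertical axis starting at 0. The set used by the rule shows no shared course, 1423267_s_at climbs from 58.9 and 50.7 to 234 and 200, and 1458996_at and 1457561_at peak at 60 minutes in both genotypes.

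Other genes of the adhesion pathway were counted from 4 lists. Of 34 tested adaptors and signalling proteins that act on the inner side of integrins, 13 rose and 0 fell at 60 minutes (7.34% and 10.7% of all genes), and 23 rose and 3 fell at 120 minutes against 0 (16.2% and 30.8%), with a median log2 difference of 0.30 at 120 minutes against -0.09 for all genes. The largest at 120 minutes were Vcl, which encodes the talin-binding and actin-binding protein vinculin (1.13 ± 0.051 at 60 and 1.40 ± 0.051 at 120 minutes), the LIM protein gene Pdlim7 (0.88 ± 0.10 and 1.13 ± 0.10) and Fermt2, which encodes the integrin activator kindlin-2 (0.73 ± 0.061 and 1.09 ± 0.061). Bcar1, a scaffold phosphorylated in focal adhesions, rose by 0.94 ± 0.060 at 60 minutes and fell by 0.38 in the second hour. At 120 against 0 minutes 4 of the 22 integrin and laminin genes rose, with a median of -0.05. For genotype, 9 of these 34 genes were lower and 1 higher (8.95% and 10.4% of all genes), led by the adaptor gene Lims2 (-0.51 ± 0.070).

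Of 18 tested membrane partners of integrins, 6 rose and 1 fell at 60 minutes (7.34% and 10.7% of all genes) and 8 rose and 2 fell at 120 minutes (16.2% and 30.8%). These included Plaur, the urokinase receptor (2.69 ± 0.084 and 3.29 ± 0.084), the hyaluronan receptor Cd44 (1.05 ± 0.097 and 1.83 ± 0.097) and the syndecan Sdc4, a co-receptor for fibronectin (1.33 ± 0.060 and 1.70 ± 0.060). For genotype 5 were lower and 0 higher (8.95% and 10.4%), with Mfge8, a secreted αv ligand, at -0.33 ± 0.044. Of 13 tested matrix ligands, 4 rose and 0 fell at 60 minutes (7.34% and 10.7% of all genes) and 5 rose and 0 fell at 120 minutes (16.2% and 30.8%). In mutant cells 5 were lower and 3 higher (8.95% and 10.4%). Thrombospondin-1 (Thbs1), bound by several integrins, rose most, by 4.67 ± 0.061 and 4.79 ± 0.061. The matricellular genes Ccn2 (3.54 ± 0.055 at 60 and 2.41 ± 0.055 at 120 minutes) and Ccn1 (2.52 ± 0.11 and 0.54 ± 0.11) had come part of the way back at 120 minutes. By genotype tenascin C (Tnc) was lower by -0.79 ± 0.086 and Thbs1 by -0.59 ± 0.050. Vcam1, a ligand of alpha 4 integrins, was higher (0.54 ± 0.092), and Edil3, which binds αv integrins, was lower (-0.53 ± 0.068).

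Of 15 tested basement membrane partners and laminin receptors, 8 were lower and 0 higher in mutant cells (8.95% and 10.4% of all genes), with a median of -0.19 against 0.01 for all genes. Nid2, a nidogen, had the largest difference: 166, 161 and 160 in wild-type against 35.5, 32.8 and 29.6 in mutant cells (-1.88 ± 0.085; adjusted p = 8.60e-07), with all mutant arrays under the filter level. Nid1, which links laminin gamma chains to type IV collagen, differed by -0.55 ± 0.051. Both type IV collagen genes that form the common network, Col4a1 and Col4a2, were lower by genotype (-0.42 ± 0.046 and -0.54 ± 0.045). They rose by 0.82 ± 0.056 and 0.44 ± 0.055 at 120 against 0 minutes, when Lamc1 rose by 0.50 ± 0.066. At 60 minutes 1 gene of this list rose and 2 fell (7.34% and 10.7%), and at 120 minutes 2 rose and 1 fell (16.2% and 30.8%).

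**Figure D5:**
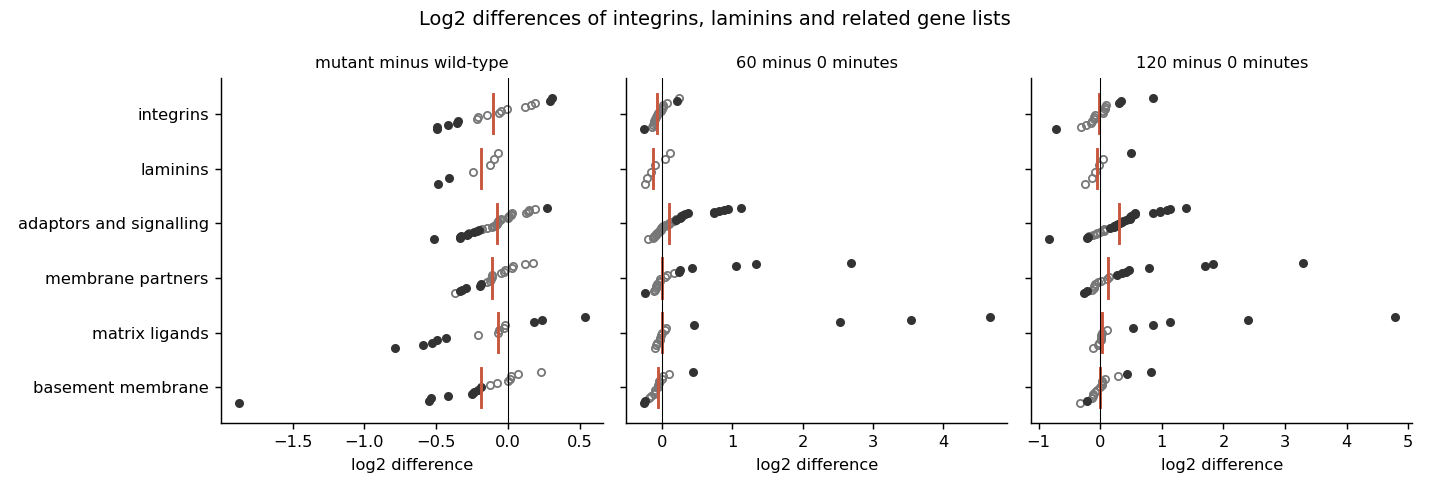
Log2 differences of the tested integrins, laminins and 4 lists of related genes in 3 comparisons, 1 point per gene, filled where the gene passed and open where it did not, with the median of each group as a vertical bar. Adaptors and signalling genes lie to the right at 120 minutes (median 0.30), while most integrins and laminins lie near 0 with Itgb3 at 0.86 and Itgb8 at -0.72.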

How the data were processed

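RNA was measured on 6 arrays, 1 per genotype and time. The deposited intensities are 1 value per probe set, made with PLIER and Affymetrix Power Tools 1.14.3.1 per the submitters' processing notes. Background correction and scaling between arrays are not given in the sources used here, so log2(intensity + 16) was computed from the deposited values without further scaling. Of 45101 probe sets, 64 controls were left out, 34945 had 1 gene symbol, 932 several and 9160 none. Symbols of 34741 were updated by gene identifier from a RefSeq table (GRCm38.p6). A gene is represented by its brightest probe set over all arrays. Those above the 40th percentile of mean level entered the test (limma 3.58.1, R 4.3.3). Genotype and time were additive terms, with a trend in shrinkage and 2 residual degrees of freedom. Shrinkage of variances toward those of other genes added 7.73 prior degrees of freedom. Tests were two-sided with Benjamini-Hochberg adjustment over all genes tested. The residual also holds any difference in time course between genotypes, which itself has no test.

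Time served as the block that pairs the genotypes, from the labels. Deviations of arrays from their genotype mean correlated across genes at 0.912, 0.757 and 0.871 at 0, 60 and 120 minutes, which holds the shared time response. Genes named were those that passed in a contrast, with the levels of the other members, and up to 4 per related list and contrast, by size of change among those that passed. Members and lists were chosen with earlier results of these data known. The procedure was tested on simulated data. Alternatives were 2 offsets, 2 filters, 2 scalings, no trend, no block, 2 treatments of probe sets and leaving out each array. The fit with no block left time out for genotype and left genotype out for the time comparisons.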

Additional observations from a re-analysis of the deposited data

Results flagged for a closer look

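Itga5 and Lama3 moved in opposite directions in the genotypes at both later times, at the probe set used for each. Itga5 changed by 0.32 and 0.21 (log2, 60 and 120 against 0 minutes) in wild-type and by -0.33 and -0.02 in mutant cells, a mutant minus wild-type difference of -0.65 at 60 and -0.23 at 120 minutes. Its 3 other probe sets rose in both genotypes. Lama3 changed by -0.23 and -0.29 in wild-type and by 0.30 and 0.38 in mutant cells, a difference of 0.53 and 0.67, at intensities between 39.7 and 70.9, close to the filter level. With 1 array per genotype and time these differences were not tested, and 744 of the 10916 genes (6.82%) had such an opposite course.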

How the results depend on the processing

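Of 20 calls of integrin and laminin genes, 3 were kept under all 16 alternatives (both Itgb8 falls and the Lamc1 rise at 120 against 0 minutes), 17 were lost under at least 1, and none changed sign. With time left out of the genotype fit, the counts were 0 higher and 0 lower, and far fewer of all genes were called as well. With genotype left out of the time fits, there were 0 rises and 0 falls at 60 against 0 minutes, where calls over all genes also dropped. The same fits gave 1 rise (Lamc1) with 1 fall (Itgb8) at 120 against 0 minutes, and 0 rises with 1 fall from 60 to 120 minutes. Genes higher in mutant cells numbered 1 without the filter and 1 at the 60th percentile filter, and both settings gave fewer genotype calls over all genes. At 60 against 0 minutes there were 0 rises and 0 falls without the trend, 2 falls after quantile normalization and 0 after median scaling. Calls over all genes in that comparison were likewise fewer without the trend and after median scaling, and more after quantile normalization. Quantile normalization gave 2 falls at 120 against 0 minutes. The mean of all probe sets gave 2 falls from 60 to 120 minutes, 1 of them Itga5, which it turned to 1.13 at 60 against 0 and -0.32 at 120 against 60 minutes. With this mean Itga5 was also called higher at 120 against 0 minutes (0.81, adjusted p = 7.04e-05). Leaving out 1 array gave 0 to 3 genes higher in mutant cells, 5 to 8 lower, 0 to 1 rises and 0 to 1 falls at 60 minutes, 4 rises with 1 to 3 falls at 120 against 0 minutes, and 2 to 3 rises with 1 fall from 60 to 120 minutes. Dropping the wild-type or the mutant array at a time gives the same genotype estimate, so those are not separate checks. The causes were not tested. Over all genes the median shift at 120 against 0 minutes was -0.09 as deposited, -0.06 after quantile normalization and -0.03 after median scaling. Signal over background limits the dim genes: Itga1, Itga8, Itga10, Itgb4 and Lama3 lay under 1.5 times the filter level.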
